A study of Homo sapiens with 6 samples.

Results

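Solute carriers (SLC genes) other than the mitochondrial SLC25 family were examined in A549 cells, an established human lung adenocarcinoma line, given PBS or rhTR11B. SLCO symbols (organic anion carriers), antisense and divergent transcripts were left out. Members were all numbered SLC symbols, such as SLC38A2, outside SLC25 with at least 10 reads in at least 3 of the 6 libraries. This gave 161 of the 230 such symbols in a table of 19876 genes, and 159 of them also passed the low-count filter of the test. SLC39A5 and SLC8A2, which did not, sat just inside the membership threshold (2 to 12 and 7 to 26 reads per library). SLC17A3 (0 to 15 reads) and SLC5A12 (4 to 16 reads) sat just outside it.

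Solute carriers are membrane proteins that move amino acids, sugars, nucleosides, ions, metals, vitamins and lipids across membranes without hydrolysing ATP themselves. Many exploit the sodium gradient that the Na,K-ATPase maintains or the proton gradient of an organelle, others exchange one solute for another or let it follow its own gradient. In epithelial tumour cells they supply amino acids and glucose, export lactate and protons, and set the metal and nucleotide-sugar content of the cytosol, Golgi and lysosomes.

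All cells were labelled wild type and were grown in medium with fetal bovine serum. The control group of 3 libraries received PBS and the treated group of 3 received rhTR11B, a name that the labels do not spell out (TR11B is a database short name of TNFRSF11B, the secreted decoy receptor osteoprotegerin). The labels state neither a dose nor a duration. They call the libraries biological replicates without saying whether each came from its own culture, so every p-value here reflects library-to-library spread, which may be partly technical.

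Library totals ran from 36315751 to 38148838 counts. rhTR11B replicate 3 stood apart: it had the highest share of counts in mitochondrially encoded genes (10.4%, against 6.63 to 8.75% in the other libraries), the lowest in ribosomal protein genes (3.87%, against 4.59 to 5.18%), and a score of 25.7 on the first principal component (36.4% of the variance), where the other rhTR11B libraries had 2.66 and 8.63 and the PBS libraries -18.4 to -5.96. The simple-epithelial keratins KRT8 (mean FPKM 460) and KRT18 (454) were abundant, whereas CDH1 and EPCAM, which define many epithelial cells, had 0 to 1 and 0 to 10 reads per library. Summed CPM of 6 fibroblast markers was 2.79 to 3.71 in the PBS and 4.27 to 6.54 in the rhTR11B libraries. COL1A1 gave most of these reads (99 to 126 per PBS and 138 to 203 per rhTR11B library), while DCN, PDGFRA and PDGFRB had 0 to 2. Summed CPM of 3 endothelial markers was at most 0.421, and the blood marker CD14 stayed at or under 0.578 CPM. The part of other cell types in the carrier results was not tested. More or fewer cells expressing a carrier cannot be told apart from more or less RNA per cell.

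The carrier set of these cells was uneven in level. On the deposited FPKM scale, which corrects for gene length and so allows genes to be compared, 135 members had a mean of at least 1, 69 of at least 10 and 18 of at least 40, around a median of 7.28. SLC38A2, a sodium-coupled importer of small neutral amino acids such as glutamine and alanine, stood first with a mean FPKM of 331, which was 12.4% of the summed FPKM of all members. The organic anion carrier SLCO4A1, which was not a member, had a mean FPKM of 296. The next members were SLC39A7 (mean FPKM 89.4), which releases zinc from the endoplasmic reticulum, and SLC39A1 (84.5), a plasma membrane zinc importer. They were followed by SLC7A5 (83.0) and SLC3A2 (79.4), the light and heavy chains of the LAT1 exchanger for large neutral amino acids. The nucleoside carrier SLC29A1 had 78.8, the lactate exporter SLC16A3 64.1, the glutamine exchanger SLC1A5 62.5, the chloride-bicarbonate exchanger SLC4A2 62.2 and the potassium-chloride cotransporter SLC12A7 57.6. The first 10 members held 37.1% of the summed FPKM of all members. Families differed in how far 1 gene led them. SLC1A5 made up 97.5% of the FPKM of SLC1, SLC29A1 84.5% of SLC29, SLC38A2 77.5% of SLC38 and SLC7A5 60.6% of SLC7. The leading gene held less of the larger SLC35 (SLC35F2, 17.1%) and SLC39 (SLC39A7, 25.1%) families, and 42.3% of SLC16 (SLC16A3).

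**Figure D1:**
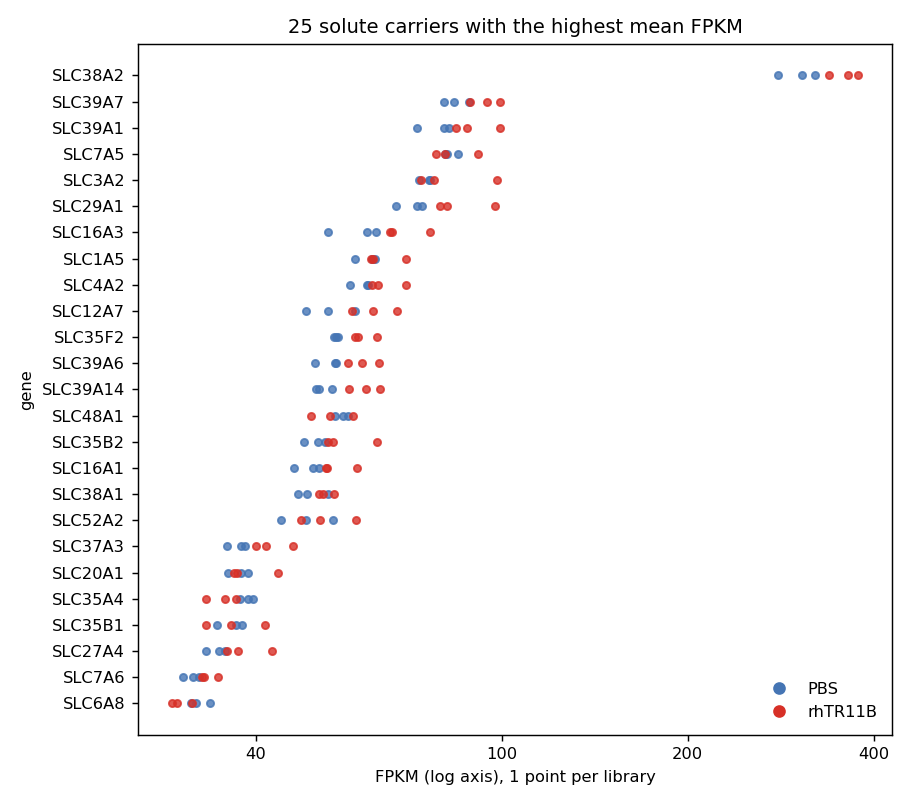
Deposited FPKM in each library (log axis) of the 25 members with the highest mean, PBS and rhTR11B libraries in different colours. SLC38A2 lies well to the right of every other gene, with 280 to 378 FPKM across the 6 libraries.

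The lung type II cell phosphate carrier SLC34A2 (0 to 1 read per library) and the neuronal-type glucose carrier SLC2A3 (0 to 2 reads) were in the table below the membership threshold. Among the glucose carriers SLC2A6, a lysosomal family member, had the highest mean FPKM (18.4, 33.8% of the SLC2 total) and SLC2A1, the widely expressed GLUT1, had 15.6.

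With rhTR11B, carrier transcripts were slightly higher across the set, and few of the differences passed the test. Of 159 genes tested, 10 rose and 0 fell (edgeR's quasi-likelihood test, Benjamini-Hochberg adjusted p under 0.05), while 2.92% of all 13567 genes tested rose, 0.678% fell and 3.60% passed in either direction. At an unadjusted p under 0.05, 72 members were higher and 0 lower, beside 13.8% and 10.3% of all genes. A further 34 members, all higher, had an adjusted p between 0.05 and 0.1. The log2 fold change was above 0 for 145 members (91.2%), beside 50.0% of all genes. Its median over the members was 0.18, a fold of 1.13, with quartiles of 0.10 and 0.26, beside 0.00 over all genes.

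The size of the differences was small. Fitted folds reached 1.2 for 39 members, 1.3 for 10 and 1.5 for 4, and none of those last 4 had a mean of 2 CPM or more. At the ends of the range were SLC38A5, another neutral amino acid carrier (-0.42, adjusted p = 0.570), and the insulin-responsive glucose carrier SLC2A4 (1.04, adjusted p = 0.104). SLC2A4 was measured at 0.321, 0.390 and 0.394 CPM in the PBS and 0.467, 0.965 and 0.842 CPM in the rhTR11B libraries, so its large fold rests on very low levels. In 66 members every rhTR11B library lay above every PBS library, and in 1, the anion exchanger SLC26A4, every one lay below; over all genes these shares were 15.1% and 14.0%. The groups overlapped in the other 92.

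The difference was not shared evenly by the libraries. Against the PBS mean, the median log2 difference over the members was 0.04, -0.04 and -0.00 in the PBS libraries and 0.09, 0.10 and 0.29 in the rhTR11B libraries. rhTR11B replicate 3 was the highest of the 6 libraries for 130 members (81.8%, beside 31.2% of all genes). PBS replicate 2 was the lowest for 68 (42.8%, beside 23.2%). The other rhTR11B libraries both lay above all PBS libraries for 67 members (42.1%, beside 18.0%). Summed over the members, 12052, 11485 and 11524 CPM were counted in the PBS libraries and 12517, 12694 and 14234 in the rhTR11B libraries, which do not overlap. Without rhTR11B replicate 3 the median log2 fold change was 0.10 and 4 members remained called (SLC38A2, SLC39A14, SLC5A3 and SLC9A5). Without PBS replicate 2, or without PBS replicate 3, 0 members passed, with adjusted p of 0.165 to 0.220 and of 0.167 to 0.209 for the 10 genes, although 49 and 56 members had an unadjusted p under 0.05. Without PBS replicate 1 there were 5 calls and without rhTR11B replicate 1 there were 38. Limma on log2 of FPKM plus 1 called 0, with 57 higher and 1 lower at an unadjusted p under 0.05. Calls over all genes moved as well. They were 295 higher and 86 lower without rhTR11B replicate 3, 18 and 5 without PBS replicate 2, and 9 and 3 without PBS replicate 3. Without PBS replicate 1 they were 255 and 27, without rhTR11B replicate 1 they were 903 and 427, and by limma on FPKM 62 and 21.

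**Figure D2:**
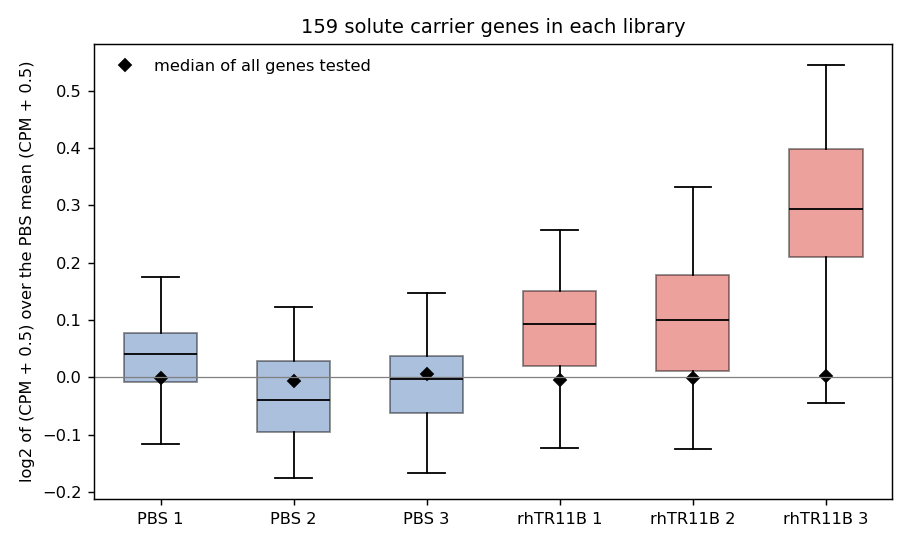
Log2 of CPM plus 0.5 over the PBS mean plus 0.5, for the 159 tested members in each library (boxes: quartiles with the median as a line; whiskers: percentiles 5 to 95; diamonds: median of all genes tested). The carrier median lies at 0.29 in rhTR11B replicate 3 and at 0.09 and 0.10 in the other rhTR11B libraries, whereas the diamonds stay near 0.

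The values were also compared with other genes of like length and level. Members were longer than other genes (median 4823 bases by the deposited FPKM, beside 3981 for all genes). Up to the members' median length the 80 carriers had a median log2 fold change of 0.19 and the remaining genes -0.02, and above it 79 carriers had 0.16 and the remaining genes 0.02. Below and above a mean of 35.1 CPM the carriers had medians of 0.22 and 0.16, beside 0.03 and -0.03 for other genes. With an offset for gene length in each library the median was 0.14 over the members and -0.04 over all genes. Under that offset 3 members remained called (SLC4A11, SLC8B1 and SLC9A5). Without the 13 mitochondrially encoded genes, 10 members were called again.

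**Figure D3:**
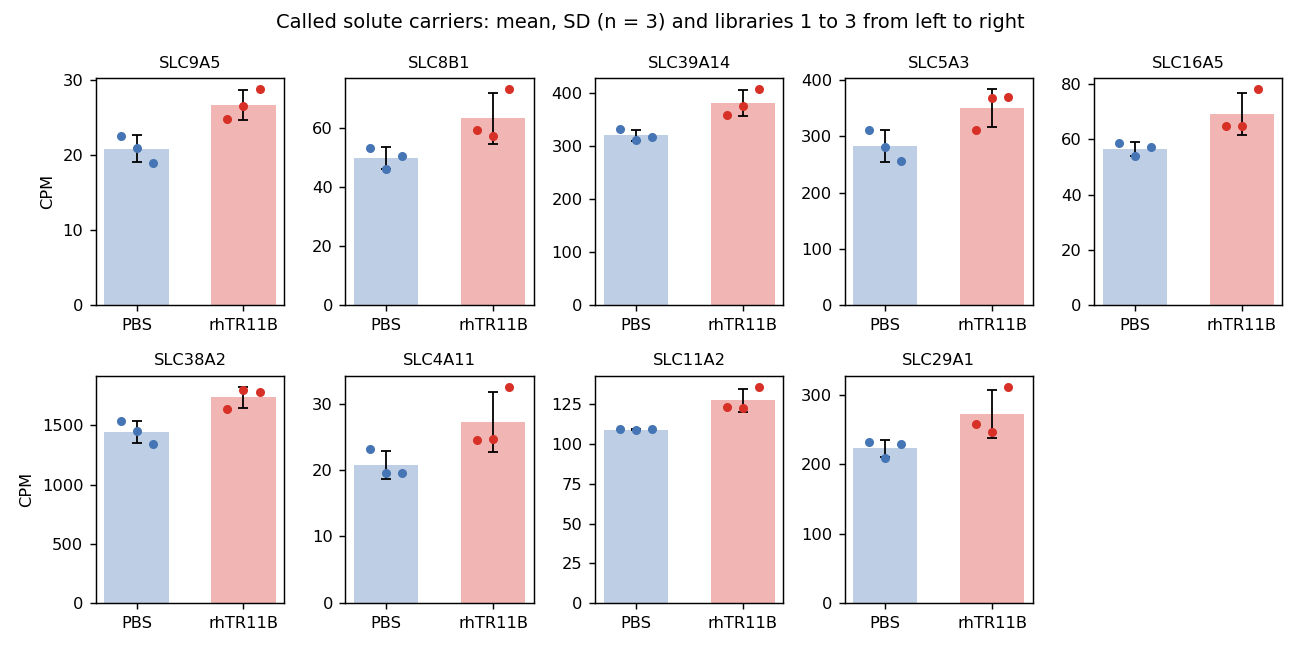
CPM of 9 of the 10 members that rose, 1 panel per gene with its own axis from 0 (points: libraries; bars: group mean; error bars: SD, n = 3). The rhTR11B points lie above the PBS points in every panel but that of SLC5A3, where rhTR11B replicate 1 and PBS replicate 1 are both at 312 CPM.

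Since 10 carriers rose together, their promoters were searched for short motifs in the 250 bases before the transcription start, taken from RefSeq (GRCh38.p14), where 6 of the 10 had an entry. Printed are the most abundant called gene, SLC38A2 (chr12:46372774-46373023, minus strand), and the pair with the smallest adjusted p, SLC9A5 (chr16:67248729-67248978, plus strand) and SLC8B1 (chr12:113335110-113335359, minus strand), each from 5′ to 3′ along the gene. Capitals mark matches on either strand to the GC box GGGCGG, the cAMP response element TGACGTCA, the E-box CACGTG, the AP-1 site TGANTCA, the CCAAT box or the TATA box TATAAA.
SLC38A2: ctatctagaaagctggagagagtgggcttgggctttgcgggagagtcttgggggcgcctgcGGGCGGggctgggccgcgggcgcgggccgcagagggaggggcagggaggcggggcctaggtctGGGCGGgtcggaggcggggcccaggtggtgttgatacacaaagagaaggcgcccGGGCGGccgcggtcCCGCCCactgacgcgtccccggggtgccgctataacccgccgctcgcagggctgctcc
SLC9A5: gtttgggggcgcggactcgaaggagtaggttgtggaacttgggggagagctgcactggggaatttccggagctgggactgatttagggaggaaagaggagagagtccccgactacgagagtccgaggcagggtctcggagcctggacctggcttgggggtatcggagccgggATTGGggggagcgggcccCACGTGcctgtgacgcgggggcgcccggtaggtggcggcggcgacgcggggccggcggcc
SLC8B1: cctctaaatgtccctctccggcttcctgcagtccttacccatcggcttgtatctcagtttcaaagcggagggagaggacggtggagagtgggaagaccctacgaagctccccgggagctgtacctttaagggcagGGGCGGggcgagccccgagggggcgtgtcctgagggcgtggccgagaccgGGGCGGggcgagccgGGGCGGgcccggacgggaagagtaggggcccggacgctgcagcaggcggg

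The SLC38A2 window was 73.6% G or C and held 4 GC boxes, that of SLC8B1 held 3, and that of SLC9A5 held none but had 1 E-box and 1 CCAAT box. A GC box was in 5 of the 6 windows, in 70.8% of the 130 tested members with an entry, in 67.8% of all tested genes with one and in 42.3% of all 27305 promoters. An E-box was in 2 of 6, in 11.5% of members and in 8.73% of tested genes. The CCAAT box was in 2 of 6, in 30.8% of members and in 35.2% of tested genes. No window of the 6 held the cAMP response element (2.31% of members, 2.86% of tested genes), the AP-1 site (5.38% and 3.79%) or the TATA box (5.38% and 5.13%). A match is a string of letters in this window and not a measured binding site.

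Amino acid carriers made up 28 of the tested genes, and 1 of them rose (3.57%, near the 2.92% of all genes). SLC38A2 (chr12:46358188-46372773, GRCh38) was measured at 1533, 1451 and 1345 CPM in the PBS libraries and at 1635, 1795 and 1779 CPM in the rhTR11B libraries. All rhTR11B libraries were above all PBS libraries, with means of 1443 ± 94.2 and 1736 ± 88.3 CPM (SD, n = 3 each). By edgeR its log2 fold change was 0.27 (SE 0.07, adjusted p = 0.0404). On the length-corrected scale its FPKM was 321, 306 and 280 under PBS and 338, 378 and 364 under rhTR11B. In the class as a whole 25 of 28 genes had a log2 fold change above 0 and the median was 0.16. In 13 the groups did not overlap, all higher (46.4%, beside 15.1% of all genes).

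Other amino acid carriers did not pass by edgeR or voom, while DESeq2 also called SLC38A10, SLC43A1 and SLC6A9. By edgeR SLC43A1, a facilitative carrier of branched-chain amino acids, came closest (0.41, adjusted p = 0.0516), ahead of the glycine carrier SLC6A9 (0.32, adjusted p = 0.0647). The LAT1 heavy chain SLC3A2 was at 186, 177 and 186 CPM in the PBS and 191, 179 and 244 CPM in the rhTR11B libraries, so that replicates 1 and 3 lay above the PBS range and replicate 2 within it (0.16, adjusted p = 0.250). Its partner SLC7A5 was at 431, 433 and 456 against 438, 417 and 500 CPM, with overlapping groups (0.04, adjusted p = 0.775). SLC7A11, which brings in cystine for glutathione synthesis with the same heavy chain, had 29.9 to 32.1 CPM under PBS and 31.3 to 34.6 CPM under rhTR11B (0.09, adjusted p = 0.469). SLC1A5 (0.10, adjusted p = 0.345) and the glutamine importer SLC38A1 (0.10, adjusted p = 0.353) were likewise unresolved, and the creatine carrier SLC6A8 had a value of -0.08 (adjusted p = 0.407). Genes of the amino acid deprivation response and serine synthesis were tested beside these carriers. Of 17, 1 was higher and 4 were lower at an unadjusted p under 0.05, beside 13.8% and 10.3% of all genes. By edgeR's adjusted p 0 of the 17 passed, and the median was -0.10 (voom called 0, DESeq2 1, PSAT1, lower). PSAT1 (-0.21, adjusted p = 0.0764) and PHGDH (-0.21, adjusted p = 0.0821), enzymes of serine synthesis, had the smallest p among them.

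Carriers of inorganic ions and of cell pH gave 4 of the 10 calls (14.8% of the class, beside 2.92% of all genes). SLC9A5 (chr16:67248979-67272191), a plasma membrane sodium-proton exchanger whose printed promoter holds an E-box and no GC box, had the smallest adjusted p of all members. It was at 22.5, 20.9 and 18.9 CPM in the PBS and 24.8, 26.5 and 28.7 CPM in the rhTR11B libraries. The groups did not overlap, and the log2 fold change was 0.36 (SE 0.08, adjusted p = 0.0305). Its annotated exons overlap those of FHOD1 on the opposite strand, by 255 bases in the largest exon pair. Reads of FHOD1 there cannot be told apart if strand was not used in counting. On the same strand they overlap AC040160.1, by 78 bases in the largest pair.

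SLC8B1 (chr12:113298771-113335109), which exports calcium from mitochondria in exchange for sodium, was at 53.0, 45.9 and 50.6 CPM against 59.4, 57.1 and 73.0 CPM. The groups stood apart (0.34, SE 0.08, adjusted p = 0.0350), with replicate 3 well above the other treated libraries. SLC4A11 (chr20:3227417-3239559), a plasma membrane carrier that conducts protons, was at 23.1, 19.6 and 19.5 CPM against 24.6, 24.7 and 32.5 CPM. Its log2 fold change of 0.39 (SE 0.10, adjusted p = 0.0451) was 0.25 without rhTR11B replicate 3 (adjusted p = 0.105).

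Across this class 25 of 27 genes had a log2 fold change above 0, and the median was 0.18. The groups did not overlap upwards in 12 (44.4%) and downwards in 1, beside 15.1% and 14.0% of all genes. The organellar exchanger SLC9A7 (0.24, adjusted p = 0.0562), SLC12A7 (0.25, adjusted p = 0.0617) and the apical anion exchanger SLC26A6 (0.27, adjusted p = 0.0634) had values of similar size that did not pass by edgeR or voom and were called by DESeq2. SLC12A7 was at 379, 312 and 345 CPM under PBS and at 379, 403 and 454 CPM under rhTR11B, so the lowest treated library was level with the highest control. SLC4A2 (0.15, adjusted p = 0.181), the sodium-potassium-chloride cotransporter SLC12A2 (0.10, adjusted p = 0.377) and the sodium-bicarbonate carrier SLC4A7 (0.08, adjusted p = 0.482) were closer to 0. Of the SLC9 family, 8 genes were tested, 7 had a log2 fold change above 0 and the median was 0.21.

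Metal carriers gave 2 calls among 23 tested, and both rose (8.70%, beside 2.92% of all genes). SLC39A14 (chr8:22367278-22434129), an importer of zinc, manganese and non-transferrin-bound iron, was at 332, 311 and 318 CPM in the PBS and 359, 377 and 408 CPM in the rhTR11B libraries. The groups did not overlap (0.25, SE 0.06, adjusted p = 0.0365). SLC11A2 (chr12:50952263-51028886), the iron importer DMT1, was at 109 CPM in each PBS library and at 124, 123 and 136 CPM under rhTR11B. Its groups were apart as well (0.22, SE 0.06, adjusted p = 0.0451), with an SD of 0.0402 CPM among the PBS and 7.33 CPM among the rhTR11B libraries.

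Zinc carriers fall into importers to the cytosol and exporters from it. Of 11 SLC39 importers tested, 10 had a log2 fold change above 0, 1 rose and the median was 0.19. Of 6 SLC30 exporters, 3 were above 0, 0 passed by edgeR, voom or DESeq2, 0 had an unadjusted edgeR p under 0.05, and the median was 0.02. The difference between the families was not tested. The importers SLC39A10 (0.21, adjusted p = 0.0583) and SLC39A6 (0.20, adjusted p = 0.0654) came next to SLC39A14, with SLC39A1 (0.22, adjusted p = 0.0764) and SLC39A7 (0.18, adjusted p = 0.0937). DESeq2 called SLC39A1, SLC39A6 and SLC39A10, and voom called none of these 4. SLC39A4, the intestinal-type importer, had a value of -0.06 (adjusted p = 0.732). The zinc-induced exporter SLC30A1 was at 48.3, 52.1 and 38.4 CPM under PBS and 43.8, 45.6 and 48.4 CPM under rhTR11B (-0.01, adjusted p = 0.960). SLC30A7, which loads the Golgi, had 0.15 (adjusted p = 0.252), SLC30A9 -0.10 (adjusted p = 0.356) and the copper importer SLC31A1 0.12 (adjusted p = 0.259). At an unadjusted p under 0.05, 0 of 9 metallothionein and metal-response genes were higher and 1 was lower, beside 13.8% and 10.3% of all genes. By edgeR's adjusted p 0 of the 9 passed (median 0.03). MT1E, a metallothionein, had -0.17 (adjusted p = 0.0821) and was the 1 gene of them that DESeq2 called, lower, while voom called 0.

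**Figure D4:**
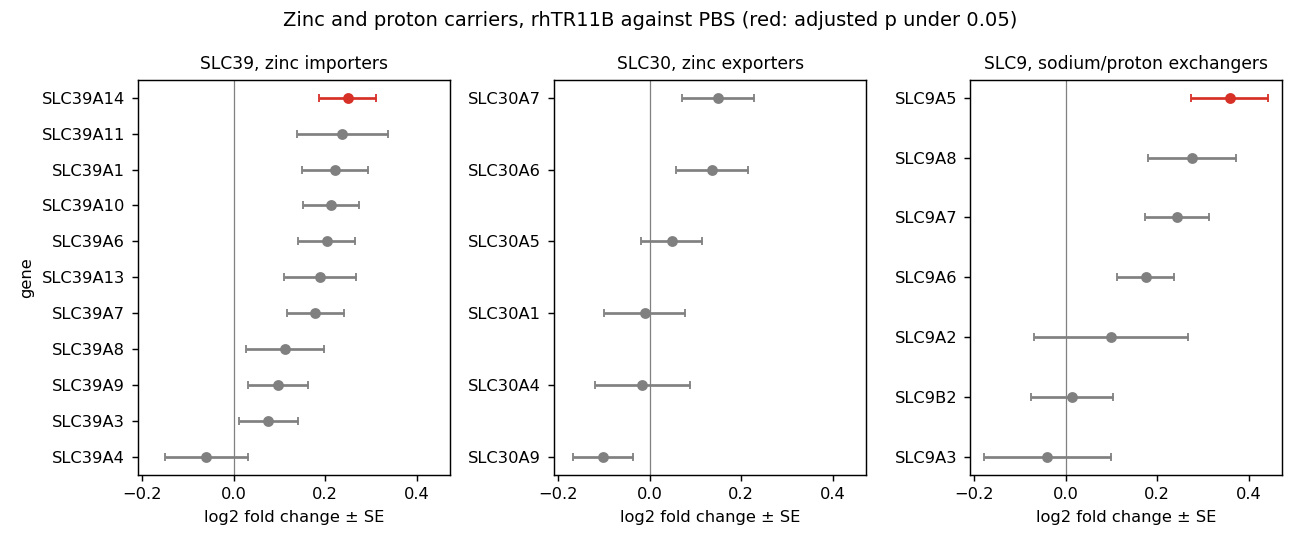
Log2 fold change with its standard error for the tested SLC39 and SLC30 zinc carriers and 7 SLC9 sodium-proton exchangers, genes that passed in red. SLC39A14 and SLC9A5 are red, and the SLC30 genes lie around 0 with a median of 0.02.

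Among carriers of sugars and polyols 1 of 15 rose (6.67%, beside 2.92% of all genes), all 15 had a log2 fold change above 0 and the median was 0.26. SLC5A3 (chr21:34073578-34106260), the sodium-coupled importer of the osmolyte myo-inositol, was at 312, 281 and 256 CPM in the PBS libraries and 312, 369 and 370 CPM in the rhTR11B libraries. rhTR11B replicate 1 lay within the PBS range, so the groups overlapped, and the log2 fold change was 0.31 (SE 0.08, adjusted p = 0.0379). Its exons overlap those of MRPS6 and AP000317.2 on the same strand, by 176 and 154 bases in the largest exon pair. The count of SLC5A3 is therefore uncertain, to an extent that was not measured. SLC2A1 was at 49.6, 44.2 and 48.0 CPM against 53.2, 53.5 and 68.7 CPM, without overlap but short of the threshold (0.31, adjusted p = 0.0539). SLC2A6 (0.29, adjusted p = 0.0649) and the glucose-6-phosphate carrier of the endoplasmic reticulum, SLC37A4 (0.27, adjusted p = 0.0732), had similar values, as did SLC37A3 (0.20, adjusted p = 0.0733). DESeq2 called SLC2A1, SLC2A6, SLC37A3 and SLC37A4, and voom called none of them.

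Nucleoside carriers gave 1 call among 5 tested, where 2.92% of all genes rose. With so few genes, 1 call cannot be read as a result for the class. SLC29A1 (chr6:44219615-44234142), the equilibrative carrier ENT1 that also admits nucleoside drugs, was at 232, 209 and 229 CPM under PBS and 258, 248 and 312 CPM under rhTR11B. Groups did not overlap (0.29, SE 0.08, adjusted p = 0.0472), and without rhTR11B replicate 3 the value was 0.18 (adjusted p = 0.0575). Its relatives SLC29A4 (0.27, adjusted p = 0.116) and SLC29A2 (0.18, adjusted p = 0.208) did not pass.

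The last call, 1 among 26 tested (3.85%, near the 2.92% of all genes), came from carriers whose substrate is less settled. SLC16A5 (chr17:75087385-75110149), a member of the monocarboxylate family, was at 58.5, 53.8 and 57.1 CPM against 64.7, 64.7 and 78.0 CPM, without overlap (0.29, SE 0.07, adjusted p = 0.0393). SLC16A13, an orphan of the same family, had 0.42 (adjusted p = 0.0571) and was called by DESeq2. The abundant SLC35F2 (mean FPKM 56.8) had 0.17 (adjusted p = 0.0926), and SLC35A4 had -0.12 (adjusted p = 0.244). The lactate carriers proper were not called by edgeR or voom, and DESeq2 called SLC16A3. SLC16A3 was at 202, 168 and 197 CPM under PBS and 217, 212 and 253 CPM under rhTR11B, without overlap (0.27, adjusted p = 0.0572), SLC16A1 had 0.17 (adjusted p = 0.119) and SLC16A7 0.14 (adjusted p = 0.229). All 8 tested SLC16 genes had a log2 fold change above 0, with a median of 0.23. The lactate carrier chaperone BSG (mean FPKM 510.0) had 0.26 (adjusted p = 0.0635) and was called by DESeq2.

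**Figure D5:**
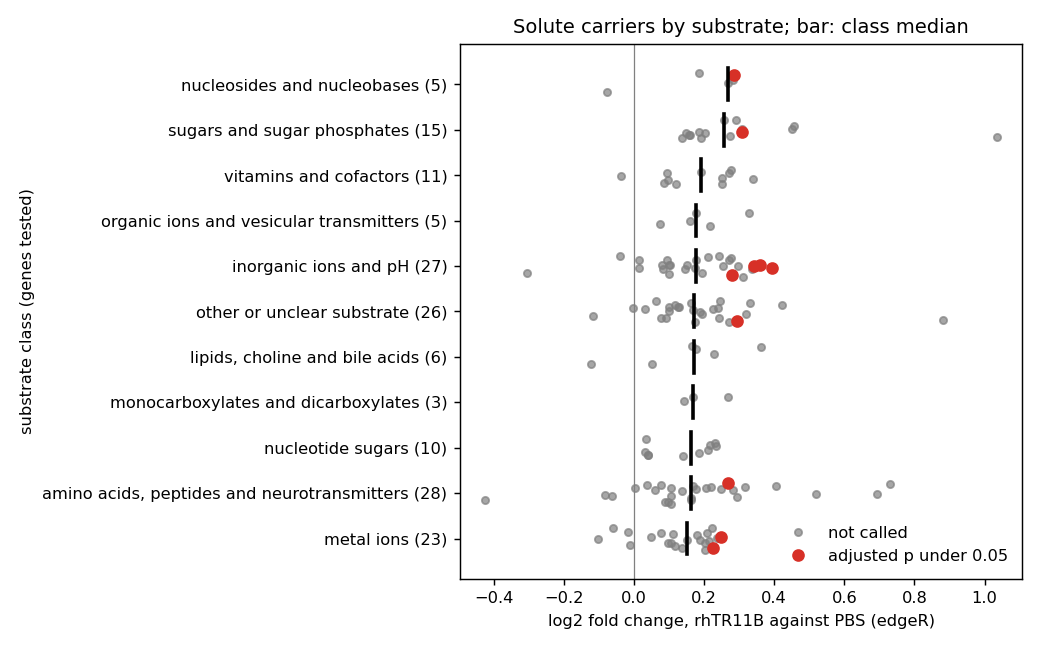
Log2 fold change of each tested member by substrate class, with a bar at the class median and the called genes in red. Class medians run from 0.15 (metal ions) to 0.27 (nucleosides), and each class has most of its points to the right of 0.

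Nucleotide sugar, vitamin, lipid and organic ion carriers had 0 calls by edgeR's adjusted p. At an unadjusted p under 0.05, 5, 4, 4 and 3 members of 10, 11, 6 and 5 were higher, beside 13.8% of all genes. Voom called 0 of them, and DESeq2 called SLC35B4, SLC33A1 and SLC27A1. The nucleotide-sugar class, of the Golgi and endoplasmic reticulum, also took in SLC35 genes with other substrates, such as the sulfate donor carrier SLC35B2. All 10 of its genes had a log2 fold change above 0 (median 0.16), between 0.03 for SLC35A3 and 0.23 for SLC35B3. SLC35B4 had 0.21 (adjusted p = 0.0590), the GDP-fucose carrier SLC35C1 0.22 (adjusted p = 0.0895) and SLC35B1 0.04 (adjusted p = 0.819). The UDP-galactose carrier SLC35A2 had 0.23 (adjusted p = 0.0926) and SLC35B2, which brings the sulfate donor into the Golgi, 0.19 (adjusted p = 0.127). Of 11 vitamin and cofactor carriers 10 were above 0 (median 0.19), among them the ascorbate importer SLC23A2 (0.19, adjusted p = 0.0827), the proton-coupled folate carrier SLC46A1 (0.25, adjusted p = 0.0880) and the acetyl-CoA carrier SLC33A1 (0.27, adjusted p = 0.0583). The reduced folate carrier SLC19A1 had 0.10 (adjusted p = 0.447), the riboflavin carrier SLC52A2 0.12 (adjusted p = 0.384) and the heme carrier SLC48A1 -0.04 (adjusted p = 0.784). Lipid and choline carriers had a median of 0.17 over 6 genes, with the fatty acid carriers SLC27A1 at 0.36 (adjusted p = 0.0637) and SLC27A4 at 0.18 (adjusted p = 0.130), and the choline carriers SLC44A2 at 0.23 (adjusted p = 0.0762) and SLC44A1 at 0.16 (adjusted p = 0.121). Organic ion and vesicular carriers had 0.18 over 5 genes, with the carnitine importer SLC22A5 at 0.07 (adjusted p = 0.688). SLC17A7, a vesicular glutamate carrier, had 0.33 (adjusted p = 0.102), the polyamine carrier SLC18B1 0.22 (adjusted p = 0.137) and the lysosomal sialic acid carrier SLC17A5 0.18 (adjusted p = 0.122).

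By the membrane where the proteins are known to act, 7 of the 67 tested plasma membrane carriers rose (median log2 fold change 0.17). Voom called 5 of these carriers, and DESeq2 16 of 68. In the Golgi and endoplasmic reticulum 0 of 21 rose (median 0.19, all 21 above 0, 0 by voom and 4 by DESeq2). At an unadjusted edgeR p under 0.05, 12 of these 21 were higher, beside 13.8% of all genes. In endosomes, lysosomes and vesicles 1 of 18 rose (median 0.18, 1 by voom and 2 by DESeq2). The shares that rose were 10.4%, 0.00% and 5.56%, beside 2.92% of all genes. Of 51 tested members without an assigned membrane 1 rose (1.96%, median 0.18), and of 2 mitochondrial members 1 rose. Mitochondrial carriers of the SLC25 family, for comparison, had 1 gene higher (2.44%) and 1 lower among 41, with 15 above 0 and a median of -0.05. ATP-driven ABC transporters had 4 higher (14.3%) and 0 lower among 28, with 18 above 0 and a median of 0.15, close to the 0.18 of the members.

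Many carriers depend on the Na,K-ATPase or on a partner protein. Of 21 tested genes for sodium, calcium and copper pumps, carrier chaperones and other partners, 7 rose (33.3%, beside 2.92% of all genes) and 0 fell. Among the 21, 18 had a log2 fold change above 0 and the median was 0.24. Without rhTR11B replicate 3, 3 were called, EMB and PDZK1IP1 among them, 1 without PBS replicate 1, and 0 without PBS replicate 2 or PBS replicate 3. The pump's beta subunit ATP1B1 (0.26, adjusted p = 0.0438), the pump regulator FXYD5 (0.29, adjusted p = 0.0358) and the monocarboxylate carrier chaperone EMB (0.28, adjusted p = 0.0347) rose. So did PDZK1IP1 (0.35, adjusted p = 0.0177) and ARL6IP5 (0.28, adjusted p = 0.0395), the latter a binding partner of a glutamate carrier.

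Other carriers that were not members, SLCO genes among them, had 3 higher (7.89%, beside 2.92% of all genes) and 1 lower among 38. Of these 38, 33 were above 0 and the median was 0.16. Without PBS replicate 2 or PBS replicate 3, 0 were called, and without rhTR11B replicate 3 the median was 0.07, with SPNS2 higher and MPC2 lower. The synaptic vesicle protein SV2A (0.80, adjusted p = 0.0249) and the major facilitator proteins MFSD8 (0.34, adjusted p = 0.0459) and MFSD6 (0.25, adjusted p = 0.0475) rose. The level of SV2A was low, with 2.55 ± 0.369 CPM under PBS and 4.43 ± 0.775 CPM under rhTR11B (SD, n = 3 each). The abundant SLCO4A1 had 0.29 (adjusted p = 0.0664), with overlapping groups, and was called by DESeq2 and not by voom. MPC2, a subunit of the mitochondrial pyruvate carrier, fell from 117 ± 2.99 to 98.3 ± 7.14 CPM (SD, n = 3 each), a log2 fold change of -0.25 (adjusted p = 0.0369). Its partner subunit MPC1 had -0.01 (adjusted p = 0.977), with overlapping groups. Regulators of carriers were transcription factors, kinases, ubiquitin ligase and adaptor proteins, and iron-responsive RNA-binding proteins. At an unadjusted p under 0.05, 2 of 22 regulators were higher and 1 was lower, beside 13.8% and 10.3% of all genes. By edgeR's adjusted p 0 of the 22 passed, and the median was -0.03. SREBF2, a sterol-responsive factor, had 0.20 (adjusted p = 0.0864) and was called by DESeq2, while voom called 0.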

How the data were processed

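The data are 6 RNA-seq libraries of A549 cells, prepared from total RNA with a VAHTS Universal V6 kit according to the labels. The authors deposited read counts and FPKM per gene symbol. The submitters' processing notes name fastp, HISAT, HTSeq, R 3.2.0, DESeq2 and build GRCh38. Not given in the sources used here are the step each tool did, the annotation and the strand setting. Deposited FPKM equalled count over length and library total, within 0.001 in relative terms, for 100% of values.

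From the counts, edgeR 4.0.16 in R 4.3.3 was run with filterByExpr (minimum count 10), TMM scaling and the quasi-likelihood test of group, adjusted by Benjamini-Hochberg over 13567 genes and tested on simulated data. CPM uses TMM-scaled library sizes; the SE is the log2 fold change over the square root of F. At these depths the spread between libraries (common biological coefficient of variation 0.0656) sets the precision. Chi-square over degrees of freedom between libraries of the same group was 5.33 to 26.1, where sampling noise alone gives about 1, so none was merged.

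Genes named are every called member, in each substrate class the 3 with the smallest p and the 2 with the highest mean FPKM, a fixed list of transporters, and up to 3 genes from each list. SLC2A4, SLC6A8, SLC9A7, SLC26A4, SLC26A6, SLC30A7, SLC30A9, SLC35A3, SLC35B3, SLC37A4, SLC38A1, SLC38A5, SLC38A10, SLC39A4 and SLC39A6 were named after their values were seen. So were SLCO4A1, MFSD6, SPNS2, MPC1, BSG and further called partners. Members and lists were chosen with earlier results of these data known. Substrate and location classes were assigned by hand from family and textbook knowledge. SLC40A1 and some other listed genes are not analysed here, and some results are not reported here. Coordinates are RefSeq GRCh38.p14. Of 157 members matched to GENCODE, 79 have an exon overlapping another gene, 65 of them on the other strand. Alternatives were DESeq2 1.42.0, voom (limma 3.58.1), other scaling and filters, a replicate block, length offsets, FPKM on a log2 scale (pseudocount 1 or 0.1) and each library left out; leaving out the 13 mitochondrially encoded genes was added after the data were seen.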

Additional observations from a re-analysis of the deposited data

How the results depend on the processing

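The number of carriers that rose (10; 0 fell under every setting run) depended on the processing, while the median log2 fold change of the set stayed above 0. The number was 10 with DESeq2 size factors, 8 with voom, 7 with library size alone, 29 with DESeq2, 33 without a low-count filter, 2 at a mean of at least 5 CPM, 3 with length offsets, and 0 with limma on log2 FPKM at each pseudocount and filter, where 45 to 57 were higher and 1 to 2 lower at an unadjusted p under 0.05. Over all genes, 405 rose with DESeq2 size factors, 347 with voom, 309 with library size alone, 740 with DESeq2 and 940 without a filter. At 5 CPM 205 of all genes rose, with length offsets 278, and on log2 FPKM 0 to 64. Leaving out 1 library gave 0 to 38 carriers (4 without rhTR11B replicate 3) and medians of 0.10 to 0.22, while 9 to 903 of all genes rose. Same-numbered libraries did not deviate together (r of -0.10, 0.05 and -0.01). With 3 libraries a group these values cannot settle whether the numbers mark pairs, and the main test did not pair them. With a replicate block 31 carriers, 10 classes and 22 genes of the other lists passed, and over all genes 774 rose and 252 fell. Substrate classes with a call (6) numbered 10 with DESeq2 and without a filter, 2 at 5 CPM, 1 with length offsets, 0 on log2 FPKM and 0 to 10 with 1 library left out. Calls in the other lists (11) numbered 6 with library size alone, 23 with DESeq2, 28 without a filter, 1 at 5 CPM, 5 with length offsets, 1, 1 and 0 on log2 FPKM, and 0 to 24 with 1 library left out. Values near 0 changed sign. The log2 fold change of SLC30A1 was 8.67e-05 with voom, 2.19e-05 at 5 CPM and -0.128 to 0.0831 with 1 library left out. The log2 fold change of SLC7A5 was -0.00801 with length offsets and -0.0401 to 0.0931 with 1 library left out. So left out, the log2 fold change of SLC35B1 was -0.0607 to 0.118, the log2 fold change of SLC48A1 -0.106 to 0.0272 and the log2 fold change of SLC22A5 -0.0362 to 0.139. The cause was not tested. With 3 libraries a group, small changes in low carriers cannot be resolved.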
